A study of Mus musculus with 25 samples.

Results

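The genes described here encode the calcium handling machinery of the cardiomyocyte: Ryr2, Atp2a2, Pln, Casq2, Slc8a1, Cacna1c, Trdn, Jph2, Hrc and S100a1. They were chosen by symbol, and each of the 10 symbols matched 1 of the 56941 genes in the count table. All 10 were among the 17682 genes that passed the filter on low counts. RNA was measured in 25 mouse hearts of 2 genotypes, wild type (WT) and MCT1KO, under 3 treatments. MCT1, encoded by Slc16a1, carries lactate and pyruvate across the cell membrane, and the study is about lactate use in the hypertrophied heart. The no pump groups held 4 WT and 3 MCT1KO hearts, the saline groups 6 WT and 4 MCT1KO hearts, and the Ang/PE groups 3 WT and 5 MCT1KO hearts. Ang/PE stands for the neurohormonal agonists with which hypertrophy was induced. The labels do not say how the knockout was made or in which cells, and give no sex, age, strain, infusion time or batch.

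In a heartbeat, calcium enters through the L-type channel (Cacna1c) and opens the ryanodine receptor (Ryr2), which releases the much larger calcium store of the sarcoplasmic reticulum. Junctophilin 2 (Jph2) holds the store membrane against the T-tubule at this site. Inside the store calcium is buffered by calsequestrin 2 (Casq2) and by the histidine-rich calcium binding protein (Hrc), and triadin (Trdn) ties calsequestrin to the release channel. Relaxation follows when the pump SERCA2 (Atp2a2), held back by phospholamban (Pln), returns calcium to the store and the sodium-calcium exchanger (Slc8a1) carries the rest out of the cell. S100a1 is a small calcium sensor that binds both the pump and the release channel. In failing and hypertrophied hearts a lower SERCA2 level is a textbook finding.

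The promoter windows of Casq2 and Slc8a1 are shown because these genes rose together in the comparison described below between Ang/PE and saline hearts labelled MCT1KO. Each run is the 250 bases before the annotated start, from RefSeq on build GRCm38.p6, written 5′ to 3′ on the strand of the gene. Capitals mark a match to the MEF2 motif in Casq2, and in Slc8a1 matches to GATAA on either strand.
Casq2 (chr3:102086165-102086414, plus strand): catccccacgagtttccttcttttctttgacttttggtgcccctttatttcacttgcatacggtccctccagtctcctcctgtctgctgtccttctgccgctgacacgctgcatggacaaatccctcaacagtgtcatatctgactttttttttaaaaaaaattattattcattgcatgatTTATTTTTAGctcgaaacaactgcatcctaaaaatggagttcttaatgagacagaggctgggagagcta
Slc8a1 (chr17:81738388-81738637, minus strand): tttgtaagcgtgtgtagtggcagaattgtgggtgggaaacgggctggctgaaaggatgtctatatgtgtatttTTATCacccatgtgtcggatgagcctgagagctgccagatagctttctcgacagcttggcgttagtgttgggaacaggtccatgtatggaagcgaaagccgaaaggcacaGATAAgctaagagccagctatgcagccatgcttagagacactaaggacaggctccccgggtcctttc
The Casq2 match to MEF2, a family of muscle transcription factors, began 69 bases before the start. The GATAA matches of Slc8a1, the core of the GATA motif, began 177 and 67 bases before it. RefSeq windows were found for 8 of the 10 genes, 11 windows in all, and 7 motifs were searched on both strands. MEF2 was present in 1 of the 11 windows, that of Casq2, and in 2.92% of 32851 windows of the same length. GATAA was present in 3 of the 11 (Pln, Slc8a1 and Hrc) against 22.6% of all windows. The E-box CANNTG was in 10 of the 11 against 66.2%, and TATAAA in 1 (Pln) against 12.4%. The CArG box, CATTCC and TGANTCA were in none of the 11 and in 1.47%, 12.6% and 6.75% of all windows. No match overlapped another in the windows printed.

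Total counts ran from 12216704 to 24880683 per heart, and the lowest count of any of the 10 genes in a heart was 2275 (S100a1), so sampling of reads did not limit these values. Mitochondrially encoded genes took 8.87% to 18.4% of the counts. Slc16a1, counted over the whole gene, differed between MCT1KO and WT by −0.02 (SE 0.15) on the log2 scale in no pump hearts (adjusted p = 0.976 in edgeR). With saline the difference was −0.33 (SE 0.13, adjusted p = 0.219 in edgeR) and under Ang/PE it was −0.18 (SE 0.15, adjusted p = 0.807 in edgeR), so no loss of the transcript was detected in the hearts labelled MCT1KO and every genotype direction below rests on the label. All 8 ventricular cardiomyocyte markers were detected in every group. Of the saline hearts, 8 of 10 had the atrial marker Myl7 above 1 CPM (the count relative to the TMM-scaled library total), against 0 of the 15 other hearts. The exceptions were WT saline replicate 1 and MCT1KO saline replicate 3. The summed atrial markers (Myl4, Myl7, Nppa and Sln) ran from 46.6 to 2600 CPM in WT saline and from 64.0 to 7380 CPM in MCT1KO saline hearts. Without a pump they ran from 60.3 to 132 CPM in WT and from 22 to 463 CPM in MCT1KO hearts. With Ang/PE they ran from 153 to 317 CPM in WT and from 316 to 5150 CPM in MCT1KO hearts. The heart at 5150 CPM, MCT1KO Ang/PE replicate 2, had Myl7 at 0.279 CPM. The 5 adipocyte markers summed to 0.875 to 1070 CPM in MCT1KO saline hearts and to at most 0.572 CPM in the 15 hearts without saline. Of these markers, Ucp1 and Lep had 0 counts in every MCT1KO no pump heart and every Ang/PE heart. MCT1KO saline replicate 4 stood apart, with the lowest ventricular marker score of the series (11.53 as a mean log2 CPM, against 12.53 to 13.11 in the other hearts) and the lowest level of 9 of the 10 calcium genes among the 25 hearts. Xist, a transcript of female cells, exceeded 100 CPM in 2 of 4, 1 of 6 and 3 of 3 WT hearts (no pump, saline, Ang/PE) and in 0 of 3, 3 of 4 and 4 of 5 MCT1KO hearts. In whole-heart RNA, fewer cells of a type and less RNA per cell cannot be told apart.

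Together the 10 genes took 2.26% to 3.28% of all counts. Per kilobase of exon, Atp2a2 was the most abundant at 2522 ± 416 CPM per kb (SD, n = 25 hearts), followed by its inhibitor Pln at 1297 ± 239.5. The calcium sensor S100a1 came next at 443 ± 80.3 CPM per kb. The buffers Casq2 (237 ± 38.1) and Hrc (231 ± 48.7) were not separated, with Casq2 above Hrc in 14 of 25 hearts. Ryr2 followed at 185 ± 30.8 and Jph2 at 144 ± 27.2 CPM per kb. The transcripts for the 2 transport proteins of the cell surface were less abundant, Slc8a1 at 46.9 ± 5.82 and Cacna1c at 33.8 ± 6.92 CPM per kb, and Trdn was the least abundant at 24.6 ± 5.29. The length used was that of all annotated exons of a gene together, not of the transcript made in heart, so the order between genes depends on the annotation. The order of Atp2a2, Pln, S100a1 and Casq2 held in all 25 hearts, and Cacna1c exceeded Trdn in 20 of 25. Pln had the widest range, 3.64-fold between its lowest and highest heart, and Slc8a1 the narrowest, 1.71-fold. In both genes the lowest heart was MCT1KO saline replicate 4. The width of the Pln range rests on that heart, at 1340 CPM, since no other heart was below 2874 CPM and the highest was at 4873 CPM.

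**Figure D1:**
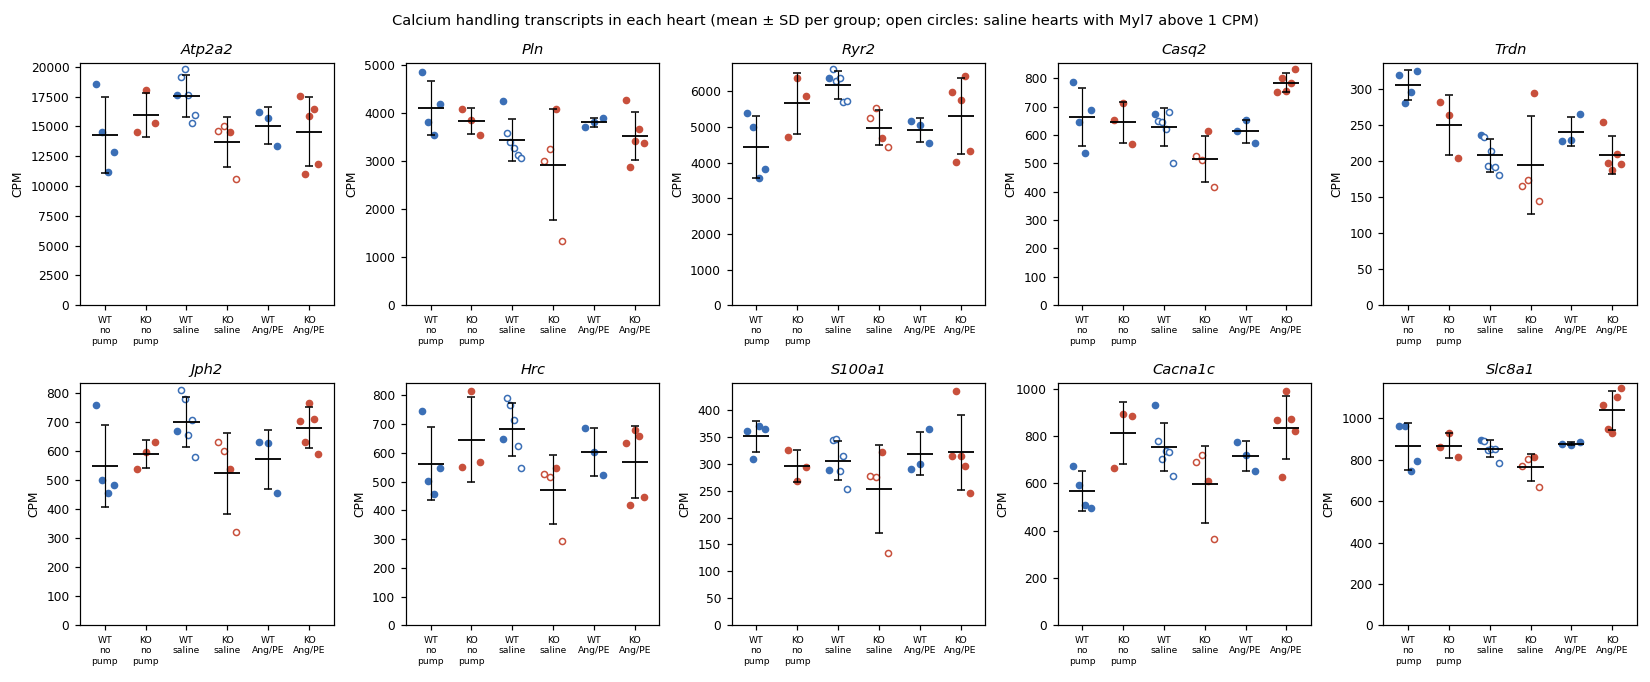
Level of each calcium handling gene in every heart (vertical axes in CPM, starting at 0; KO stands for MCT1KO). Points are hearts, horizontal lines are group means with SD, and open circles are the 8 saline hearts with Myl7 above 1 CPM. In 9 of the 10 panels the lowest point of all 25 hearts is MCT1KO saline replicate 4.

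The buffer Casq2 (ENSMUSG00000027861) was at 786, 644, 538 and 687 CPM in the 4 WT no pump hearts and at 652, 712 and 568 CPM in the 3 MCT1KO no pump hearts. With saline it ran from 500.1 through a median of 648 to 680 CPM in the 6 WT hearts and was at 525, 513, 613 and 415 CPM in the 4 MCT1KO hearts. Under Ang/PE the WT hearts had 615, 653 and 572 CPM and the MCT1KO hearts 751, 799, 755, 783 and 833 CPM. The 5 MCT1KO Ang/PE hearts were above every saline heart and every WT Ang/PE heart, and only WT no pump replicate 1 reached their range.

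Trdn (ENSMUSG00000019787) was at 319, 279, 296 and 324 CPM in WT and at 282, 263 and 203 CPM in MCT1KO hearts without a pump. With saline it ran from 179.7 through a median of 203 to 236 CPM in WT and was at 165, 173, 294 and 145 CPM in MCT1KO hearts. With Ang/PE it was at 228, 229 and 264 CPM in WT and at 253, 197, 187, 209 and 195 CPM in MCT1KO hearts. All 4 WT no pump hearts were above all WT saline and all WT Ang/PE hearts. Among MCT1KO saline hearts only replicate 3, one of the 2 saline hearts without Myl7 above 1 CPM, was in the range of the WT no pump hearts.

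Ryr2 (ENSMUSG00000021313), the release channel itself, was at 5383, 4993, 3582 and 3818 CPM in WT and at 4732, 6389 and 5864 CPM in MCT1KO hearts without a pump. With saline it ran from 5704 through 6341 to 6642 CPM in WT and was at 5250, 5521, 4700 and 4445 CPM in MCT1KO hearts. With Ang/PE it was at 5177, 5048 and 4542 CPM in WT and at 5987, 4007, 5753, 6436 and 4340 CPM in MCT1KO hearts. The 6 WT saline hearts were above all WT hearts of the other treatments and above all MCT1KO saline hearts. The MCT1KO Ang/PE hearts were split, 3 lying at 5753 CPM or more and 2 at 4340 CPM or less.

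The remaining genes of the release site and the sensor S100a1 had their lowest group mean in MCT1KO saline hearts. In each of them MCT1KO saline replicate 4 was the lowest of the 25 hearts, at 322.5 (Jph2), 294 (Hrc) and 134 CPM (S100a1). By median, Hrc (522 CPM) and S100a1 (276 CPM) were still lowest in MCT1KO saline hearts. Jph2 was not, with a median of 570 CPM there against 492 CPM in WT no pump hearts. Jph2 (ENSMUSG00000017817) had group means from 523 ± 139 CPM (SD, n = 4) in MCT1KO saline to 699.5 ± 84.6 CPM (n = 6) in WT saline hearts. Hrc (ENSMUSG00000038239) had its extremes in the same groups, 472 ± 119 and 682 ± 92.4 CPM. S100a1 (ENSMUSG00000044080) ran from 252 ± 81.7 CPM in MCT1KO saline to 351 ± 28.5 CPM (n = 4) in WT no pump hearts.

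The pump and its inhibitor did not follow the same order of groups. Atp2a2 (ENSMUSG00000029467) had its lowest group mean in MCT1KO saline hearts at 13700 ± 2087 CPM (n = 4) and its highest in WT saline hearts at 17590 ± 1762 CPM (n = 6). That lowest place rests on replicate 4 at 10600 CPM. The other MCT1KO saline hearts were at 14600 to 15000 CPM, above the WT no pump mean of 14290 CPM. In Ang/PE hearts Atp2a2 was at 15080 ± 1536 CPM (WT, n = 3) and 14560 ± 2910 CPM (MCT1KO, n = 5). Pln (ENSMUSG00000038583) also had its lowest mean in MCT1KO saline hearts, 2927 ± 1158 CPM, but its highest in WT no pump hearts, 4111 ± 570 CPM (n = 4). The spread and the low mean of Pln in MCT1KO saline hearts came from replicate 4 at 1340 CPM, with the other 3 hearts at 2999, 3268 and 4102 CPM. The next lowest group mean of Pln was 3451 CPM in WT saline hearts.

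The genes of calcium entry and removal at the surface also differed in order. Cacna1c (ENSMUSG00000051331) ran from 567.5 ± 83.8 CPM (n = 4) in WT no pump to 835 ± 133 CPM (n = 5) in MCT1KO Ang/PE hearts. Slc8a1 (ENSMUSG00000054640) was at 964, 961, 744 and 793 CPM in WT and at 863, 930 and 812 CPM in MCT1KO hearts without a pump. With saline it ran from 783 through 851 to 895 CPM in WT and was at 770, 803, 812 and 669 CPM in MCT1KO hearts. With Ang/PE it was at 877, 871 and 884 CPM in WT and at 1062, 949.9, 931, 1101 and 1146 CPM in MCT1KO hearts. The 5 MCT1KO Ang/PE hearts were again above all saline and all WT Ang/PE hearts.

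MCT1KO and WT hearts of the same treatment were set against each other to ask how the genotype bears on calcium handling genes. None of the 10 genes passed an adjusted p of 0.05 in edgeR in any of the 3 treatments, where 0% of all tested genes passed. DESeq2 also called 0 of the 10 in each, against 0.210% of the genes it tested in no pump hearts, 1.61% with saline and 0.0108% under Ang/PE. Here and below, these are the genes to which DESeq2 gave an adjusted p. Their number differed between comparisons (14747, 3548 and 37179 in these 3), so the DESeq2 shares do not have a common base. The genes called were 31, 57 and 4. With saline, all 10 genes had a lower mean in hearts labelled MCT1KO, with a median log2 difference of −0.30 against 0.03 for all tested genes. The 8 ventricular cardiomyocyte markers had a median of −0.34 in the same comparison, with none called. Unadjusted p was below 0.05 for 6 of the 10, all lower, against 8.62% of all genes in that direction. The largest of these differences were in Hrc (−0.53, SE 0.18, adjusted p = 0.18 in edgeR) and Jph2 (−0.42, SE 0.16, adjusted p = 0.21 in edgeR). Ryr2 (−0.31, SE 0.15) and Atp2a2 (−0.36, SE 0.16) were the 2 genes whose groups did not overlap, against 2.88% of all genes. When MCT1KO saline replicate 4 was left out, 8 of the 10 differences were still negative, with a median of −0.17, and 0 of the 10 had an unadjusted p below 0.05, against 6.89% of all genes.

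Under Ang/PE, Casq2 and Slc8a1 were the 2 genes with an unadjusted p below 0.05 between the genotypes, against 6.92% of all genes. The level of Casq2 was 613 ± 40.7 CPM in the 3 WT and 784 ± 33.4 CPM in the 5 MCT1KO hearts, a log2 difference of 0.35 (SE 0.13) with an adjusted p of 0.692 in edgeR. The level of Slc8a1 was 877 ± 6.55 and 1038 ± 94.0 CPM, a log2 difference of 0.24 (SE 0.11) with an adjusted p of 0.711 in edgeR. Neither pair of groups overlapped, against 5.10% of all genes without overlap, and neither difference passed the correction. Without a pump, Cacna1c had a mean of 813 ± 130 CPM (n = 3) in MCT1KO and 567.5 ± 83.8 CPM in WT hearts, a log2 difference of 0.52 (SE 0.19) with an adjusted p of 0.291 in edgeR and overlapping groups. It was the 1 gene of the 10 with an unadjusted p below 0.05 there, against 12.2% of all genes. For Atp2a2 the 95% confidence intervals of the genotype difference were −0.24 to 0.55 without a pump, −0.70 to −0.02 with saline and −0.43 to 0.33 with Ang/PE.

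**Figure D2:**
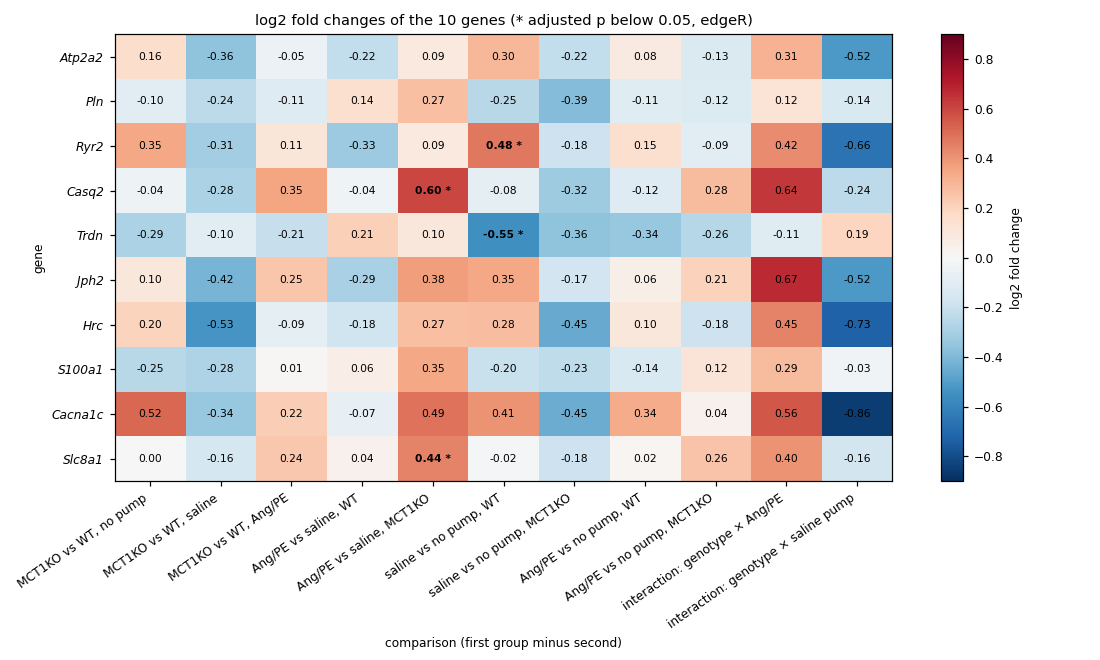
Log2 fold change of each calcium handling gene (rows) in each of the 11 comparisons (columns, first group minus second), coloured from blue (lower) to red (higher). An asterisk marks an adjusted p below 0.05 in edgeR: Casq2 and Slc8a1 in Ang/PE against saline MCT1KO hearts, and Ryr2 and Trdn in saline against no pump WT hearts.

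Ang/PE was compared with saline to measure the response to the agonists against infused controls. In hearts labelled MCT1KO, the buffer Casq2 and the exchanger Slc8a1 rose and none of the 10 genes fell. The mean level of Casq2 was 517 ± 81.0 CPM (n = 4) in saline and 784 ± 33.4 CPM (n = 5) in Ang/PE hearts, and its log2 fold change was 0.60 (SE 0.12, 95% interval 0.35 to 0.85, adjusted p = 0.0123 in edgeR). Slc8a1 went from 763 ± 65.7 to 1038 ± 94.0 CPM, a log2 fold change of 0.44 (SE 0.10, 95% interval 0.24 to 0.65, adjusted p = 0.0148 in edgeR). In both genes every Ang/PE heart was above every saline heart, which held for 5.42% of all genes in one direction or the other. The 2 genes are 2 of the 10, against 4.46% of all tested genes called in this comparison and 1.75% called higher. DESeq2 called the same 2 genes higher, against 2.71% of the genes it tested called higher and 6.01% in either direction.

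The other 8 genes did not pass in that comparison, although all 10 fold changes were positive, with a median of 0.31 against −0.01 for all genes. Cacna1c (0.49, SE 0.17, adjusted p = 0.0934 in edgeR) and Jph2 (0.38, SE 0.17, adjusted p = 0.207 in edgeR) were the others with an unadjusted p below 0.05, a share of 4 in 10 against 20.4% of all genes. Atp2a2, the pump, had a fold change of 0.09 (SE 0.17, 95% interval −0.26 to 0.44). With MCT1KO saline replicate 4 left out, the fold change of Casq2 was 0.51 (SE 0.12) with an adjusted p of 0.0571 in edgeR, and that of Slc8a1 was 0.38 (SE 0.10) with an adjusted p of 0.0834 in edgeR. Neither passed then, and 2 of the 10 fold changes were negative, with a median of 0.11. The ventricular marker score, the atrial markers and the adipocyte markers moved with the same contrast. Of 4 atrial and 4 tested adipocyte markers, 3 and 4 were lower with Ang/PE, and the 8 ventricular markers had a median log2 change of 0.44 with none called. With the atrial and adipocyte scores as covariates the fold changes of Casq2 and Slc8a1 were 0.33 and 0.30, with adjusted p of 0.642 and 0.639 in edgeR. With the ventricular score as a covariate they were 0.44 and 0.34, with adjusted p of 0.101 and 0.119 in edgeR.

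In WT hearts, 0 of the 10 genes passed between Ang/PE and saline in edgeR, against 0.0170% of all genes, and DESeq2 also called 0, against 4.20%. Unadjusted p was below 0.05 for 1 of the 10 and for 19.1% of all genes. That gene was Ryr2, at 4922 ± 335 CPM (n = 3) with Ang/PE and 6189 ± 387 CPM (n = 6) with saline (log2 fold change −0.33, SE 0.16, adjusted p = 0.261 in edgeR). These groups did not overlap, as was the case for 13.6% of all genes. The log2 change of Casq2 was −0.04 (95% interval −0.30 to 0.23) and that of Slc8a1 0.04 (95% interval −0.18 to 0.26). The difference between the genotypes in the response was tested as an interaction, and 0 of 10 genes passed in edgeR (0% of all genes) or in DESeq2 (0.140%). The interaction was positive for 9 of the 10 genes, with a median of 0.41 against −0.02 for all genes. For the 8 ventricular markers the median interaction was 0.56, with none called. Of the 10 calcium handling genes, 4 had an unadjusted p below 0.05 against 13.5% of all genes. These were Jph2 (0.67, SE 0.25, adjusted p = 0.304 in edgeR), Casq2 (0.64, SE 0.17, adjusted p = 0.294), Cacna1c (0.56, SE 0.24, adjusted p = 0.338) and Slc8a1 (0.40, SE 0.14, adjusted p = 0.297). Leaving out MCT1KO saline replicate 4 gave 3 genes with an unadjusted p below 0.05, all positive, against 9.56% of all genes, with 2 negative interactions and a median of 0.30.

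Saline was compared with no pump to measure what accompanied the pump itself. In WT hearts, the release channel Ryr2 rose and its partner triadin fell. Ryr2 went from 4444 ± 879 CPM (n = 4) without a pump to 6189 ± 387 CPM (n = 6) with saline, a log2 fold change of 0.48 (SE 0.15, 95% interval 0.17 to 0.78, adjusted p = 0.0492 in edgeR). Trdn went from 305 ± 20.7 to 208 ± 23.1 CPM, a log2 fold change of −0.55 (SE 0.14, 95% interval −0.85 to −0.25, adjusted p = 0.0267 in edgeR). The groups did not overlap in either gene, and the same 2 genes and directions were called by DESeq2, with adjusted p of 0.00882 and 0.00724. They are 2 of the 10 genes against 6.61% of all tested genes in edgeR and 10.3% whose groups did not overlap. In DESeq2 5.88% of the genes it tested were higher and 7.14% lower.

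Ryr2 was close to the threshold and passed in 6 of the 25 fits that each left out 1 heart (WT no pump replicate 1, MCT1KO saline replicates 3 and 4, and MCT1KO Ang/PE replicates 2, 4 and 5), with an adjusted p of 0.0181 to 0.196 over all 25. Trdn lost the call without WT no pump replicate 3 or 4 or WT saline replicate 3 or 5, with adjusted p up to 0.0857. Jph2 passed as well without WT no pump replicate 1 (0.54, adjusted p = 0.0319 in edgeR), and Cacna1c without MCT1KO saline replicate 4 (0.41, adjusted p = 0.0443 in edgeR). With GC content and gene length modelled per library the changes were 0.24 for Ryr2 (adjusted p = 0.388 in edgeR) and −0.37 for Trdn (adjusted p = 0.158 in edgeR). Atrial markers moved with this contrast, 3 of 4 being higher with saline, and with the atrial and adipocyte scores as covariates the value of Trdn was −0.17 (adjusted p = 0.685) and that of Ryr2 0.54 (adjusted p = 0.466). Without the 8 saline hearts with Myl7 above 1 CPM, which leaves 1 WT saline heart, the values were −0.38 for Trdn and 0.51 for Ryr2, with adjusted p of 0.606 and 0.617 in edgeR. The lone heart is assumed in that fit to vary like the other groups.

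Cacna1c (0.41, SE 0.16, adjusted p = 0.12 in edgeR) and Jph2 (0.35, SE 0.16, adjusted p = 0.192 in edgeR) were the other WT genes with an unadjusted p below 0.05 between saline and no pump, giving 4 of 10 against 24.3% of all genes. In hearts labelled MCT1KO, 0 of 10 genes passed in edgeR or DESeq2, against 0.00566% of all genes in edgeR and 1.04% in DESeq2. All 10 fold changes were negative there, with a median of −0.27 against 0.01 for all genes and −0.21 for the 8 ventricular markers. An unadjusted p below 0.05 was found for 4 of the 10 genes, against 12.1% of all genes. These were Cacna1c (−0.45, SE 0.19), Hrc (−0.45, SE 0.21), Trdn (−0.36, SE 0.17) and Casq2 (−0.32, SE 0.13), with adjusted p from 0.335 to 0.398 in edgeR. The groups did not overlap for Hrc, 1 of the 10 genes against 8.60% of all. In the absence of MCT1KO saline replicate 4, 9 fold changes were negative with a median of −0.14, and 0 had an unadjusted p below 0.05, against 7.03% of all genes. Without MCT1KO saline replicate 3, Trdn passed in MCT1KO hearts as well, with a fold change of −0.63 and an adjusted p of 0.0137 in edgeR.

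The saline step was also tested as an interaction with genotype. In edgeR 0 of 10 genes passed, against 0.00566% of all genes. The 10 genes had a median of −0.38, against 0.03 for all genes and −0.46 for the 8 ventricular markers. The 4 with an unadjusted p below 0.05, against 17.2% of all genes, were Cacna1c (−0.86, SE 0.25, adjusted p = 0.132), Hrc (−0.73, SE 0.28, adjusted p = 0.195), Ryr2 (−0.66, SE 0.22, adjusted p = 0.152) and Atp2a2 (−0.52, SE 0.25, adjusted p = 0.284). DESeq2 called Cacna1c (−0.86, adjusted p = 0.0413), 1 of the 10 genes against 2.52% of the genes it tested. The edgeR value of Cacna1c passed without WT no pump replicate 1 (−0.94, adjusted p = 0.0436). With MCT1KO saline replicate 4 left out it was −0.67 (SE 0.2, adjusted p = 0.15 in edgeR). In that fit 3 genes had an unadjusted p below 0.05, all negative, against 15.6% of all genes, and the median of the 10 was −0.24. The saline hearts enter the comparisons with Ang/PE, with no pump and between the genotypes, so these comparisons share samples.

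Ang/PE was compared with no pump as well, a contrast of group means that holds no saline group. The saline hearts still entered the shared model and its estimate of spread. The 5 MCT1KO Ang/PE hearts are the same as in the comparison with saline. Here 0 of the 10 genes passed in edgeR in WT (0% of all genes) or in MCT1KO hearts (0.503% of all genes), and DESeq2 called 0 in both (0.114% and 2.27% of the genes it tested). In WT hearts no calcium handling gene had an unadjusted p below 0.05, against 9.02% of all genes, and the median change was 0.04. In hearts labelled MCT1KO the 2 genes with an unadjusted p below 0.05, against 13.1% of all genes, were again Casq2 (644 ± 72.2 to 784 ± 33.4 CPM, 0.28, SE 0.13, adjusted p = 0.343 in edgeR) and Slc8a1 (868 ± 59.3 to 1038 ± 94.0 CPM, 0.26, SE 0.11, adjusted p = 0.285 in edgeR). In both genes all 5 Ang/PE hearts were above all 3 no pump hearts, and 8.45% of all genes were without overlap there. The log2 change of Atp2a2 was 0.08 (95% interval −0.32 to 0.47) in WT and −0.13 (95% interval −0.51 to 0.25) in MCT1KO hearts. The Trdn groups of WT hearts did not overlap, 240 ± 20.5 CPM with Ang/PE and 305 ± 20.7 CPM without a pump, and its change of −0.34 (SE 0.17) did not pass (adjusted p = 0.568 in edgeR), while 10.7% of all genes were without overlap in that comparison.

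**Figure D3:**
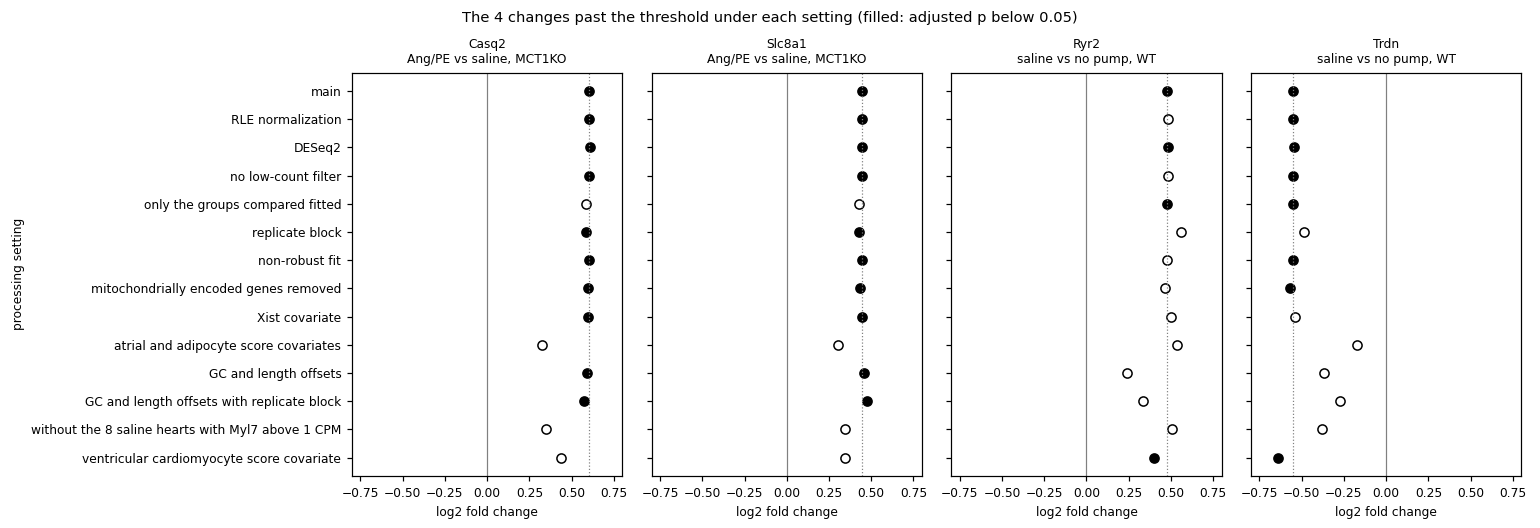
Log2 fold change (horizontal axis) of the 4 changes past the threshold under each processing setting (rows); filled points have an adjusted p below 0.05 and the dotted line is the reported value. Casq2 and Slc8a1 passed in 9 of 13 alternatives, Trdn in 7 and Ryr2 in 3, and every value kept its sign.

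The ratio of Atp2a2 to Pln transcripts sets the pump against its inhibitor, and was examined after the values had been seen. Per kilobase it was 1.57 ± 0.182 (SD, n = 4) in WT no pump hearts, 2.33 ± 0.262 (n = 6) in WT saline hearts and 1.80 ± 0.222 (n = 3) in WT Ang/PE hearts. In hearts labelled MCT1KO it was 1.89 ± 0.260 (n = 3), 2.37 ± 0.848 (n = 4) and 1.87 ± 0.208 (n = 5) in the same order. WT saline and no pump hearts did not overlap, with a log2 difference of 0.57 and an exact two-sided permutation p of 0.00952, which is 0.0857 adjusted over the 9 comparisons made. Ang/PE against saline in WT hearts gave −0.38 with an exact permutation p of 0.0476, adjusted to 0.214. None of the 9 comparisons passed after adjustment. The p of 0.00952 is the smallest that this permutation test can give with 6 and 4 hearts, and the other group sizes allow none smaller. No comparison could therefore pass on its own, and the adjusted values do not decide whether the ratio differed. With GC content and gene length modelled the fitted saline change in WT hearts was 0.21 in place of 0.55, and without the 8 saline hearts with Myl7 above 1 CPM it was 0.25.

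**Figure D4:**
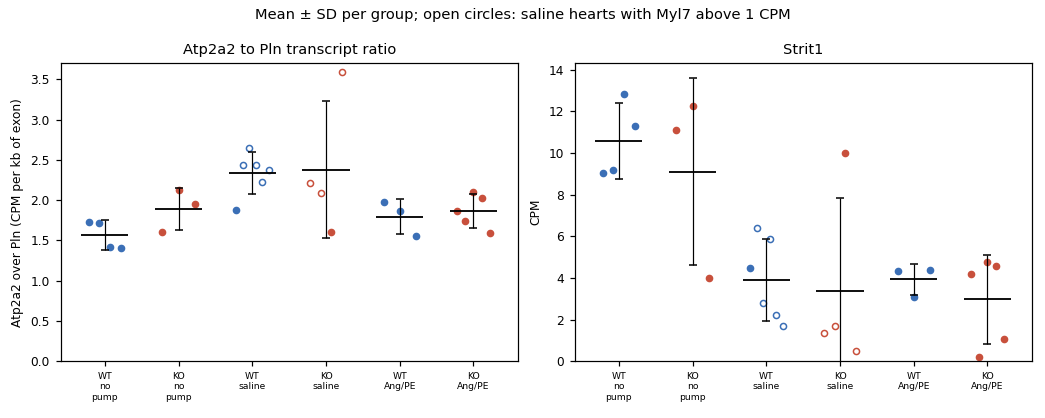
Left, ratio of Atp2a2 to Pln transcript level per kilobase in every heart; right, level of Strit1 in CPM. Lines are group means with SD, open circles are saline hearts with Myl7 above 1 CPM, and the highest ratio, 3.59, is MCT1KO saline replicate 4.

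A further 61 genes of calcium handling were listed around these 10, and all 61 were tested. In Ang/PE against saline MCT1KO hearts 2 were called higher and 5 lower, in saline against no pump WT hearts 5 higher and 3 lower, and in the other 9 comparisons 0 were called in edgeR. The background is the same as above, 4.46% and 6.61% of all genes. The list's median change was 0.05 in the first of these comparisons and 0.08 in the second. The counts without MCT1KO saline replicate 4 were 0 higher and 1 lower (Tcap) in the first, where 0.222% of all genes were then called, and 7 higher and 3 lower in the second, where 9.59% were. Without the 8 saline hearts with Myl7 above 1 CPM they were 0 in both, against 0% and 0.00548% of all genes.

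Of the genes around the pump, sarcolipin (Sln), a second small inhibitor of SERCA that is also an atrial marker, was called in both comparisons. It had 0 counts in all 4 WT no pump hearts, where 3 counts would be 0.135 to 0.161 CPM, and a mean of 51.3 ± 56.4 CPM (n = 6) in WT saline hearts. In MCT1KO saline hearts it was at 85.0, 67.3, 0 and 348 CPM, the 0 being replicate 3, and in all Ang/PE hearts it was at or below 0.15 CPM. Strit1, which encodes the DWORF peptide that activates the pump, was chosen after its values were seen. It was at 10.6 ± 1.83 CPM (n = 4) in WT no pump hearts, 3.91 ± 1.96 (n = 6) with saline and 3.93 ± 0.740 (n = 3) with Ang/PE. The WT saline and no pump hearts did not overlap, yet its log2 change of −1.44 (SE 0.61) did not pass (adjusted p = 0.149 in edgeR). In hearts labelled MCT1KO Strit1 was at 9.10 ± 4.48, 3.39 ± 4.44 and 2.97 ± 2.15 CPM.

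Around the release channel, Calm2 and Sri fell in WT hearts between no pump and saline. Calm2, a gene for calmodulin, went from 67.4 ± 3.96 to 43.3 ± 3.31 CPM (log2 change −0.64, SE 0.11, adjusted p = 0.00797 in edgeR), and Sri (sorcin, which binds the channel) from 37.3 ± 3.88 to 27.6 ± 2.93 CPM (−0.44, SE 0.10, adjusted p = 0.0161 in edgeR). Speg, a kinase of the junction between T-tubule and store, rose from 394 ± 56.5 to 552 ± 33.8 CPM (0.49, SE 0.12, adjusted p = 0.024 in edgeR). The T-type channel gene Cacna1g rose from 15.3 ± 2.80 to 28.1 ± 7.79 CPM (0.88, SE 0.24, adjusted p = 0.032 in edgeR). Akap6 and Camk2g were the remaining genes called higher there, named although they fall outside the rule for naming.

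In MCT1KO hearts between saline and Ang/PE, Tcap (telethonin) fell from 728 ± 150.5 to 465 ± 81.2 CPM (−0.65, SE 0.15, adjusted p = 0.0159 in edgeR). Cacna1d, a second L-type channel gene, fell from 15.3 ± 12.2 to 4.32 ± 0.654 CPM (−1.82, SE 0.37, adjusted p = 0.0139 in edgeR). The surface pump gene Atp2b2 and the phosphatase inhibitor gene Ppp1r1a also fell, to 0.490 ± 0.263 and 0.249 ± 0.164 CPM. The highest saline heart of Cacna1d, Atp2b2 and Ppp1r1a was replicate 4, at 32.3, 14.2 and 6.37 CPM. The 2 genes that rose, named outside the rule, were Nexn (0.52) and Micu2 (0.43), a gatekeeper of the mitochondrial calcium uniporter. Asph (junctin and its relatives), Jph1, Camk2d, Mcu and Fkbp1b were called in none of the 11 comparisons. Fkbp1b, the FK506 binding protein of the cardiac release channel, was at 0.360 to 0.780 CPM as a group mean, and Mcu, the pore of the uniporter, at 22.7 to 24.7 CPM. The lowest adjusted p of this set was that of Asph in Ang/PE against saline MCT1KO hearts, 222 ± 35.7 to 279 ± 44.5 CPM (0.33, SE 0.11, adjusted p = 0.0798 in edgeR).

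With group means removed, the 10 genes varied together from heart to heart in part. Over 25 hearts, 13 of the 45 gene pairs had a Pearson correlation of log2 CPM of at least 0.7, and 8 were below 0.3. The highest was between Atp2a2 and Hrc at 0.92 (Spearman 0.90), and Ryr2 and Atp2a2 reached 0.90. Atp2a2, Hrc, Jph2, Ryr2 and Cacna1c formed the block of high values, while Trdn was close to Pln (0.73) and not to the channel it anchors to calsequestrin, Ryr2 (0.05). Ryr2 and S100a1 had the lowest value, −0.07. Without MCT1KO saline replicate 4, 7 pairs were at least 0.7 and 17 were below 0.3, Atp2a2 and Hrc stayed at 0.91, and Pln and S100a1 went from 0.64 to 0.00. The points share libraries and their scaling, and these values are a description.

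**Figure D5:**
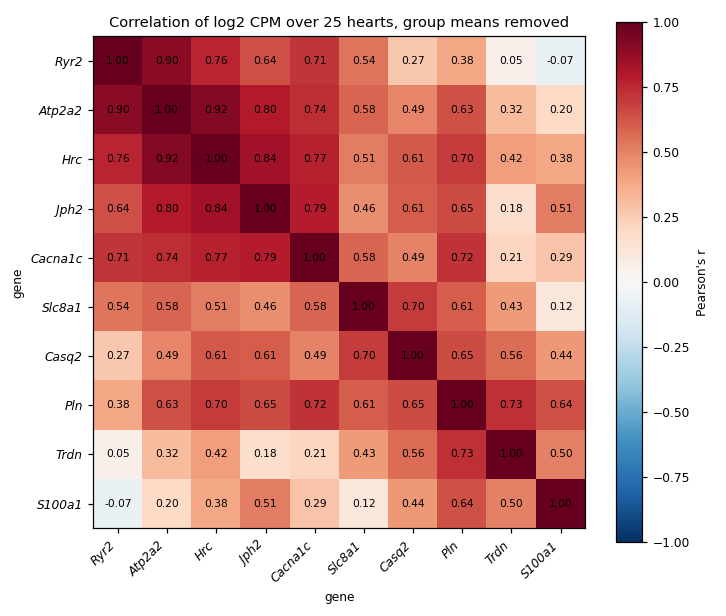
Pearson correlation of log2 CPM between the calcium handling genes over 25 hearts after group means were removed (colour from blue at −1 to red at 1). Among Ryr2, Atp2a2, Cacna1c, Jph2 and Hrc the values run from 0.64 to 0.92, and Trdn and S100a1 have their lowest values with Ryr2.

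The genes most like each member were sought among 9476 genes with a mean log2 CPM above 3, by the same correlation over 25 hearts. For Ryr2 they were Gpt2 (0.92), Myh6 (0.91) and Atp2a2 (0.90), and for Atp2a2 they were Sdha (0.93), Ivd (0.93) and Dele1 (0.92). Hrc was followed most closely by Egln1 (0.96), and Jph2 by Opa3 and Fem1a (both 0.96). For Pln the first was Carnmt1 (0.95), and for Cacna1c it was Ptprm (0.94). Trdn was most like Ube2b (0.96) and, among others, the mitochondrially encoded mt-Co1 (0.93). S100a1 was most like Psmc3 (0.96) and Guk1 (0.95). Casq2 and Slc8a1 had weaker first partners, Ptcd2 at 0.88 and Dnm1l at 0.82. Trdn and Slc8a1 have antisense genes, Pln lies within Cep85l on the opposite strand and Cacna1c overlaps Dcp1b in GENCODE M21, while the strand setting of the counting is not given in the sources used here, so reads of these overlapping genes may have been shared.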

How the data were processed

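RNA from 25 mouse hearts was isolated with the miRNeasy kit, depleted of ribosomal RNA and made into stranded libraries, per the labels' protocols. The authors deposited 1 table of raw counts per Ensembl gene (56941 genes, 25 columns). The submitters' processing notes name cutadapt 1.16, STAR 2.7.9a, featureCounts 1.6.3, DESeq2 1.42.1 and build GRCm39 (mm39); the roles, annotation and strand setting are not given in the sources used here. Symbols were matched for 51948 genes, Strit1 through its RefSeq synonym Gm34302. GENCODE M21 (GRCm38) supplied the symbols, exon length, GC content and the gene overlaps named above.

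The counts were tested in R 4.3.3 with edgeR 4.0.16: filterByExpr by group (17682 genes), TMM scaling, and 1 robust quasi-likelihood model of the 6 groups over all hearts, with 19 residual degrees of freedom. The 11 contrasts were two-sided, adjusted by Benjamini-Hochberg over all tested genes and called below 0.05. CPM is edgeR's count relative to the TMM-scaled library size, and n counts hearts. The labels do not say whether hearts came from separate litters or batches, so p-values measure the spread between these hearts. Counts varied between hearts of a group by a common biological coefficient of 0.196. The fit was tested on simulated data. Replicates within a group differed beyond counting error in all 43 pairs (chi-square per degree of freedom at least 3.33). The lowest value was that of MCT1KO saline replicates 1 and 2, and the next was 7.9 (MCT1KO Ang/PE replicates 3 and 4). The highest, 108, was that of MCT1KO saline replicates 3 and 4.

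The 10 genes, the 61 further calcium genes and the marker lists were chosen with earlier results of these data known. Among the 61, the rule names up to 5 called genes of smallest p per comparison, plus Sln, Fkbp1b, Asph, Jph1, Camk2d and Mcu. Beside the atrial, adipocyte and ventricular lists, 1 of 5 fibroblast markers was called higher in Ang/PE against saline MCT1KO hearts. In saline against no pump WT hearts 1 of 4 leukocyte markers was lower and 1 of 8 ventricular markers higher. No endothelial, smooth muscle, erythroid or skeletal muscle marker was called in any comparison in edgeR. The alternatives were RLE scaling, DESeq2 1.42.0, no filter, only the groups compared, a block for the replicate number, Xist or atrial and adipocyte scores as covariates, mitochondrially encoded genes left out, a fit that was not robust, and GC and length offsets (mgcv 1.9.3) without and with the block. Leaving out each heart was also planned, and 2 more were added after seeing the data: the ventricular score as a covariate, and leaving out the 8 saline hearts with Myl7 above 1 CPM. Some single-gene results are not reported here.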

Additional observations from a re-analysis of the deposited data

Results flagged for a closer look

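In 4 of 40 tests of a group's extreme heart, 1 heart lay further from the rest than Dixon's 95% limit allows; chance would give about 2. MCT1KO saline replicate 4 was low in Atp2a2 at 10600 CPM, with the other 3 hearts at 14600 to 15000 CPM. The same heart was low in Hrc at 294 CPM, against 517 to 548 CPM. WT saline replicate 6 had Casq2 at 500 CPM, against 621 to 680 CPM in the other 5 hearts. WT no pump replicate 2 had S100a1 at 308 CPM, against 361 to 370 CPM.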

How the results depend on the processing

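No called value of a single gene changed sign under the 13 alternatives or when a heart was left out. The count of calcium handling genes called in Ang/PE against saline MCT1KO hearts went from 2 to 0 with only the groups compared fitted, with the atrial and adipocyte scores, with the ventricular score and without the 8 saline hearts with Myl7 above 1 CPM. In saline against no pump WT hearts it went from 2 to 1 (Trdn) with RLE scaling, no filter, a non-robust fit or mitochondrially encoded genes removed. It went to 3 there with only the groups compared fitted (adding Cacna1c, 0.41, adjusted p = 0.0391 in edgeR) and with the ventricular score (adding Pln, −0.47, adjusted p = 0.0138 in edgeR), and to 0 with the Xist covariate, the atrial and adipocyte scores, the GC and length offsets, and without the 8 saline hearts. In the interaction of genotype and saline pump it went from 0 to 1 with DESeq2. The causes were not tested. Over all genes, 788 were called in Ang/PE against saline MCT1KO hearts and 1168 in saline against no pump WT hearts. These became 452 and 509 with no filter, 1 and 2287 with only the groups compared, 0 and 0 with the atrial and adipocyte scores, 22 and 1872 with the ventricular score, and 0 and 1 without the 8 saline hearts. They became 1181 and 1920 with DESeq2, 633 and 549 with Xist, 534 and 527 with the block, 859 and 236 with GC and length offsets, and 645 and 12 with both of these. Leaving out 1 heart gave 0 to 2 called genes in Ang/PE against saline MCT1KO hearts (0 without MCT1KO saline replicate 4), 0 to 3 in saline against no pump WT hearts (0 without WT no pump replicate 3 or 4 or WT saline replicate 3 or 5; 3 without WT no pump replicate 1, adding Jph2, or MCT1KO saline replicate 4, adding Cacna1c), 0 to 1 in saline against no pump MCT1KO hearts, 0 to 1 in the pump interaction and 0 to 0 in the other 7 comparisons. Over the alternatives the adjusted p of Casq2 ran from 6.97e-05 to 0.645, of Slc8a1 from 8.94e-05 to 0.639, of Ryr2 from 0.00882 to 0.617 and of Trdn from 0.00233 to 0.685. The deviations of same-numbered hearts had mean correlations of −0.157 to 0.101 over the 9 two-group comparisons. No comparison was above 0.1 in every pair, and single pairs ran from −0.232 to 0.405. The replicate number was therefore not used as a pairing in the main model, but so few pairs cannot exclude a shared batch or litter. With the replicate block 2 genes were called in Ang/PE against saline MCT1KO hearts and 0 in saline against no pump WT hearts, also 0 with GC and length offsets added. The lowest count behind any of the 10 genes in a heart was 2275.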
